A study of Homo sapiens with 18 samples.

Results

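Ribosomal protein mRNAs encode the protein components of the cytosolic ribosome, the RPL and RPLP genes those of the large subunit and the RPS and RPSA genes those of the small subunit. They are short, rank among the most abundant mRNAs of dividing cells, and carry a terminal oligopyrimidine (TOP) motif, a run of pyrimidines that begins with a C at the very 5′ end of the mRNA. Through this motif mTOR signalling sets their translation as a group, and LARP1 binds and represses them when mTOR activity is low. SBP2, the protein precipitated here, binds SECIS elements, the stem-loops in the 3′ untranslated regions of selenoprotein mRNAs that allow selenocysteine to be inserted at UGA codons, and is known to associate with ribosomes. The 60 members were the genes of a fixed list of cytosolic ribosomal protein IDs, which leaves out RPL30, a ribosomal protein that itself binds SECIS elements. They were 60 of the 58676 genes in the deposited count table, all 60 had counts in every library, and all 60 were among the 17678 genes tested over all libraries and the 16616 tested over the inputs.

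The libraries came from an RNA immunoprecipitation followed by sequencing (RIP-seq) in HEK 293T cells, a line of embryonic kidney origin that takes up plasmids easily (the growth protocol names HEK 293). One treatment, the control, received a plasmid for the Flag tag alone, another a plasmid for Flag-SBP2, and the other one Flag-SBP2 followed at 4 h by 100 nM sodium selenite. All were transient transfections, so SBP2 was overexpressed from a plasmid, and the labels describe no removal of the cells' own SBP2. Lysates were taken at 48 h, anti-Flag beads were incubated with 4 mg of protein for 5 h and washed in 300 and then 500 mM KCl, and the input was set aside before the incubation. With 3 biological replicates, input and RIP libraries of the 3 treatments gave 6 groups and 18 libraries of polyA RNA. The labels do not say whether replicates were transfected separately in time, so p-values measure the spread between these samples. Each library held between 15.2 M and 29.9 M counts, where M stands for 1e+06, and replicates differed by more than the sampling noise in every group. The deposited table names genes by Ensembl ID and does not pair IDs with symbols, so members are given here by ID, without their subunit. Ribosomal protein genes have many processed pseudogenes, and how reads with several matches were counted is not given in the sources used here, so a member's counts may miss reads or hold those of a copy. The largest rise in the SBP2 inputs belonged to ENSG00000187742, at 55.1 ± 3.1 CPM (counts scaled to a library total of 1e+06) in the control, 2829.6 ± 259 CPM with SBP2 and 3047 ± 583 CPM with SBP2 and selenite (SD, n = 3), an ID named after its values were seen; the transfected gene itself was not looked up by name.

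The motif that the family shares is shown first, since it is a sequence feature that the choice of members did not use. In RefSeq's table of annotated transcription start sites (GRCh38.p14, 250 bases before to 50 bases from each start on), 46 of 77 starts of RPL, RPLP, RPS and RPSA genes (59.7%) began with a C followed by at least 4 more C or T, against 1429 of all 35116 starts (4.07%). Allowing the run to begin up to 5 bases to either side of the annotated start, 57 of the 77 starts (74.0%) held one, against 7408 of all starts (21.1%). By gene symbol, 46 of 62 ribosomal protein symbols (74.2%) and 1404 of all 27305 (5.14%) had at least 1 start with the run. Only the gene's own strand was searched, with no other motif. None of the 60 IDs could be matched to a symbol in that table, so the motif describes the family and not single members of the list. Windows of 30 bases around 8 of these starts, 3 from large subunit and 5 from small subunit genes, show its form. Each runs 5′ to 3′ on the gene's strand from 15 bases upstream through the first 15 bases of the transcript, at the start of the first exon, and the capitals mark the pyrimidines from the annotated start on, up to the first purine; pyrimidines directly upstream of the start are left in lower case.
RPLP0, chr12:120201097-120201126, minus strand: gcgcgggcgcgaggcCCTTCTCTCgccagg
RPLP2, chr11:809952-809981, plus strand: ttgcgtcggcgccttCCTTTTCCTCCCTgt
RPL29, chr3:51995881-51995910, minus strand: caccgcagcccctttCTCTTCCggttctag
RPSA, chr3:39406705-39406734, plus strand: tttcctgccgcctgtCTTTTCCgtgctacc
RPS3, chr11:75399503-75399532, plus strand: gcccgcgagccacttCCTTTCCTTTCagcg
RPS6, chr9:19380222-19380251, minus strand: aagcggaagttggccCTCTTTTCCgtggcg
RPS14, chr5:150449725-150449754, minus strand: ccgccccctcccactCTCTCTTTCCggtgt
RPS18, chr6:33272060-33272089, plus strand: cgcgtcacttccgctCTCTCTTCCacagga
All 8 runs begin with a C, which is how these starts were selected, and the runs, counted from the annotated start on, are 7 to 13 bases long.

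Ribosomal protein mRNAs made up 10.9 to 13.0% of the input counts and 2.93 to 4.97% of the counts in every precipitate. They held 12.2, 10.9 and 11.0% of the counts in the 3 control inputs (11.4 ± 0.721%, SD, n = 3). In the control RIP libraries their share was 3.12, 3.24 and 2.93% (3.10 ± 0.157%). With Flag-SBP2, they held 13.0, 12.1 and 11.9% of the input counts (12.3 ± 0.584%) and 4.97, 4.86 and 4.37% of the RIP counts (4.73 ± 0.321%). Every RIP library lay far below every input. With selenite added, the input shares were 12.2, 11.0 and 11.4% (11.5 ± 0.643%) and the RIP shares 4.89, 3.89 and 4.14% (4.30 ± 0.519%). The RIP share of each lysate, divided by its input share, was 0.256 to 0.298 in the control, 0.367 to 0.402 with Flag-SBP2 and 0.354 to 0.399 with Flag-SBP2 and selenite. The 3 control lysates thus lay below all 6 lysates with Flag-SBP2, and the latter overlapped each other with and without selenite. A RIP library gives shares of the precipitated RNA, and the amount precipitated was not measured, so more RNA of one gene and less of all others cannot be told apart.

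**Figure D1:**
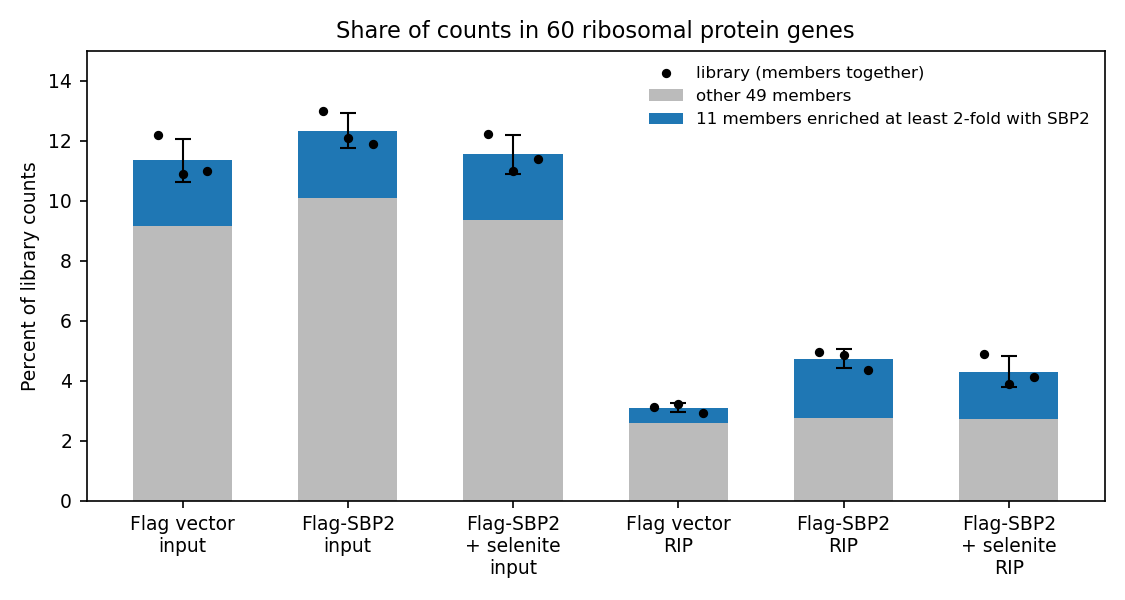
Percent of library counts in the 60 ribosomal protein genes, by group, as the mean of 3 libraries (bars; error bars, SD of the total; dots, single libraries). Blue is the part held by the 11 members whose RIP-to-input change with Flag-SBP2 exceeded that of the control at least 2-fold, which falls to 0.501% in the control RIP and reaches 1.97% with Flag-SBP2, while the grey part lies near 2.60 to 2.76% in all 3 RIP groups.

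What anti-Flag beads recovered from cells with the Flag tag alone was examined first, as the background of the precipitation. Each of the 60 members was lower in the RIP than in the input of the control (edgeR's quasi-likelihood test with Benjamini-Hochberg adjustment over all genes, threshold 0.05), where 39.8% of all tested genes were called lower. Of these, 57 were at least 2-fold lower (22.1% of all genes), and the replicates of input and RIP did not overlap for any of the 60 (39.7% of all genes lay below without overlap). The median log2 change of the members was -2.53, or 5.76-fold lower, against -0.13 over all tested genes, which put the median member at the 3.37th percentile. In single lysates the members' median log2 ratio of RIP to input was -2.74, -2.28 and -2.46, and all 60 were below 0 in each.

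Members differed widely in how far they fell in the control. The lowest was ENSG00000144713, at 2428, 1976 and 1968 CPM in the control inputs and 145, 142 and 124 CPM in the control RIP, a log2 change of -3.96 (SE 0.136, edgeR adjusted p = 9.13e-18). ENSG00000112306 followed at -3.86 (SE 0.157, adjusted p = 1.29e-16), then ENSG00000137818 at -3.81 and ENSG00000197958 at -3.77. At the other end, ENSG00000100316 was at 3008, 3138 and 3398 CPM in the control inputs and 2435, 1900.5 and 2019 CPM in the control RIP, a log2 change of -0.59 (SE 0.0977, adjusted p = 8.38e-06). Input and RIP values did not overlap even for this least reduced member. The next were ENSG00000198034 at -0.90, ENSG00000174444 at -0.96 and ENSG00000148303 at -1.10. The first 3 of these least reduced members were the 3 that fell by less than 2-fold.

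With Flag-SBP2 the family stayed low in the precipitate, and 2 members passed their input level. Relative to the SBP2 input, 54 members were lower (31.7% of all genes), 2 were higher (30.3%) and 4 passed in neither direction; 51 were at least 2-fold lower (14.7%). The median log2 change was -2.08 against -0.02 over all genes, with lysate medians of -2.12, -1.87 and -2.21. With selenite, 54 members were lower (31.6% of all genes), 1 was higher (30.7%) and 5 passed in neither direction; 50 were at least 2-fold lower (14.8%). There the median was -1.95 against -0.0046 over all genes, with lysate medians of -1.81, -2.05 and -1.93. ENSG00000144713 was again the lowest member, at -4.08 without and -3.96 with selenite, followed by ENSG00000197958 at -3.53 and -3.56. For ENSG00000144713 the RIP values of 151, 155 and 123 CPM overlapped those of the control RIP.

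**Figure D2:**
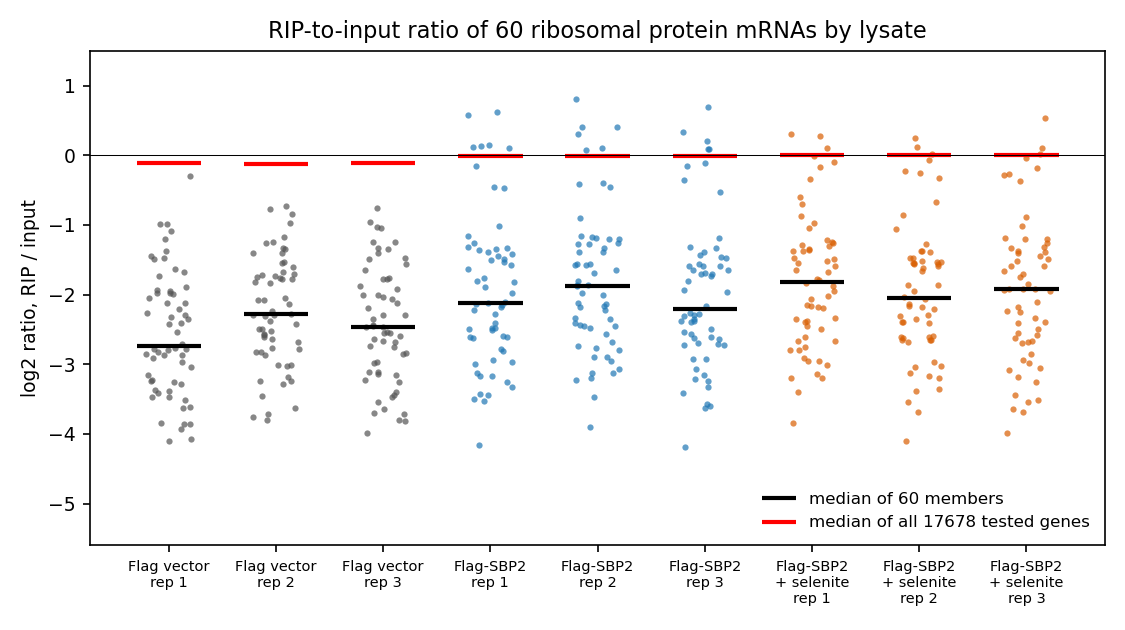
Log2 ratio of RIP to input for each of the 60 members (dots) in each of the 9 lysates, with the median of the members (black line) and of all 17678 tested genes (red line). All members lie below 0 in the 3 control lysates, where the medians run from -2.74 to -2.28; 5 or 6 members lie above 0 in each Flag-SBP2 lysate and 3 in each lysate with selenite.

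The comparison the study was built for sets the RIP-to-input change with Flag-SBP2 against that of the control, called enrichment over control here. On this measure 25 members were higher (21.7% of all genes), 2 were lower (18.1%) and 33 passed in neither direction. Of the 25, 11 were enriched at least 2-fold (9.57% of all genes). The median log2 enrichment over all 60 members was 0.25, against 0.022 over all tested genes, and single members ran from -0.68 to 3.96. The lysate ratios of SBP2 lay above those of the control without overlap for 27 members (27.3% of all genes) and below for 4 (23.8%). Counts moved with the scaling, and over all genes the balance of higher and lower calls turned. With plain library sizes 19 members were higher (17% of all genes) and 5 lower (24.7%). The median of all genes shifted by -0.15 and that of the members became 0.098. Lysate medians of control and SBP2 varied with a combined SD of 0.29, larger than this value and the main 0.25. Scaling factors computed without the members gave 19 higher (17.6% of all genes) and 5 lower (23.8%), with a shift of -0.13 in all genes. Relative to all genes, the members' median stood 0.23 higher on the main scale, 0.22 with plain library sizes and 0.23 with factors computed without the members. Scaling moves all genes of a comparison nearly alike, so these values could hardly differ. With limma's voom the value was 0.20, with no filter on low counts 0.14 and with RIP libraries compared directly 0.35. The RIP libraries compared with each other, without the inputs, gave 39 members higher (31.6%) and 3 lower (30.6%). Same-numbered control and SBP2 RIP libraries deviated together, and this comparison blocked by replicate gave 41 higher (32.9%) and 3 lower (31.9%).

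The largest enrichment over control belonged to ENSG00000164587, a member strongly reduced by the control precipitation. It was at 2674, 2045 and 2077 CPM in the control inputs and 175, 187 and 158 CPM in the control RIP, a log2 change of -3.71 (SE 0.122). In the SBP2 lysates it was at 2558, 2403 and 2136 CPM in the inputs and 2789, 3186 and 2463 CPM in the RIP. The SBP2 RIP was thus near its input, with overlapping replicates and a log2 change of 0.25 (SE 0.11, edgeR adjusted p = 0.0515). With input and RIP of a lysate as a block this change was called (adjusted p = 0.0125), as it was in 7 of the 9 alternative settings. Its log2 enrichment was 3.96 (SE 0.161, adjusted p = 7.37e-16), or 15.5-fold, and the lysate ratios of -3.93, -3.45 and -3.72 in the control and 0.12, 0.41 and 0.21 with SBP2 were far apart.

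ENSG00000063177 was at 320.0, 373 and 303 CPM in the control RIP and 2671, 2682 and 2342 CPM in the SBP2 RIP, from inputs of 2175 ± 168 and 2261 ± 127 CPM (SD, n = 3). Its enrichment was 2.89 on the log2 scale (SE 0.139, edgeR adjusted p = 1.42e-14), and its change from the SBP2 input was 0.18 (adjusted p = 0.104; called higher in 3 of the 9 alternative settings). ENSG00000168028 was at 262, 236 and 246 CPM in the control RIP and 1512, 1343 and 1339 CPM in the SBP2 RIP. Its SBP2 inputs held 1013, 1011 and 1065 CPM, so it lay above its input with Flag-SBP2 (0.44, SE 0.0868, adjusted p = 9.71e-05) and below it in the control (-2.26). All 3 SBP2 RIP values exceeded all 3 input values for this member. ENSG00000142676 was the other one that changed side: it was at 2631, 2473 and 2192 CPM in the control inputs and 685, 744 and 638 CPM in the control RIP, against 2729, 2380.3 and 2528 CPM and 4214, 4160.2 and 4069 CPM with SBP2. The log2 changes of ENSG00000142676 were -1.82 in the control and 0.70 with SBP2 (SE 0.0874, adjusted p = 1.41e-07), an enrichment of 2.52 (SE 0.125, adjusted p = 2.61e-14).

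ENSG00000083845 was at 184, 181 and 168 CPM in the control RIP and 1194, 1121 and 1032 CPM with Flag-SBP2, an enrichment of 2.68 (SE 0.125, edgeR adjusted p = 8.11e-15). ENSG00000071082 was at 297, 307 and 259 and 1622, 1497 and 1368 CPM, an enrichment of 2.20 (SE 0.183, adjusted p = 4.81e-10). Both stayed below their inputs with SBP2, at -0.46 and -0.43 on the log2 scale, without overlap between input and RIP. ENSG00000145425 was at 67.9, 67 and 59.8 CPM in the control RIP and 227, 192 and 197 CPM in the SBP2 RIP, an enrichment of 1.68 (SE 0.147, adjusted p = 1.18e-09). Its change from the SBP2 input, -0.24 (adjusted p = 0.0481), lost the call without SBP2 input replicate 1 or 2 or SBP2 RIP replicate 2 or 3, with an adjusted p of up to 0.174. ENSG00000122406 was at 1420.4, 1316 and 1365 CPM in the control RIP and 3579.6, 3250.3 and 3229 CPM with SBP2, close to its SBP2 inputs of 3257, 3085 and 3026 CPM, an enrichment of 1.27 (SE 0.119, adjusted p = 4.2e-09).

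The other members past 2-fold were ENSG00000140988, ENSG00000112306 and ENSG00000114391, with log2 enrichments of 1.18, 1.07 and 1.06. All 3 remained far below their inputs with Flag-SBP2: ENSG00000112306, for example, was at 1606, 1331 and 1287 CPM in the SBP2 inputs, 233, 208 and 169.7 CPM in the SBP2 RIP and 85.7, 88.1 and 78.9 CPM in the control RIP. Enrichment over control therefore covered 3 situations. Of the 25 enriched members, 2 lay above their input with SBP2, 4 passed in neither direction from it (ENSG00000164587, ENSG00000063177, ENSG00000122406 and ENSG00000100316), and 19 were still below it. Just inside the 2-fold limit were ENSG00000112306 and ENSG00000114391, and just outside it was ENSG00000198242 at 0.93. From there the values ran down without a gap to ENSG00000177600 at 0.36 (adjusted p = 0.0497), the smallest enrichment called.

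**Figure D3:**
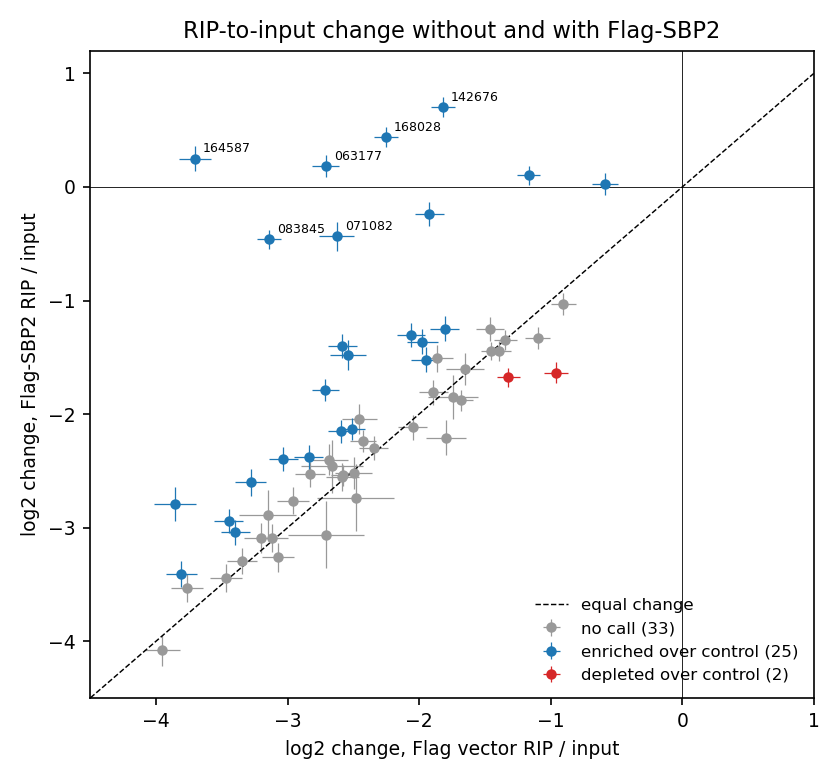
Log2 change from input to RIP in the control (x axis) and with Flag-SBP2 (y axis) for the 60 members, with bars of 1 SE and a dashed line of equal change. Numbers are the last 6 digits of the ID of the 6 members enriched by more than 2 on the log2 scale; most members follow the line, while a group stands above it near or beyond a change of 0.

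Of the 11 members enriched at least 2-fold, all kept their call under each alternative processing and each left-out library. Among the other 16 calls without selenite, 6 were lost under some alternative setting and 6 without at least 1 library. ENSG00000137818, ENSG00000177600, ENSG00000161016, ENSG00000147403 and ENSG00000118181 lost theirs both ways, with log2 enrichments of 0.40, 0.36, 0.46, 0.38 and 0.43. Without control RIP replicate 3, the library whose absence lowered the count most, 20 members were higher, and without SBP2 RIP replicate 3 the number was 28. The shares of all genes in these fits were not counted, so these shifts may not be particular to the members.

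In the unblocked test a pair of members went the other way. ENSG00000174444 was at 1891, 1873 and 1756 CPM in the control RIP and 1235, 1201 and 1082 CPM in the SBP2 RIP, from inputs of 3576 ± 207 and 3644 ± 164 CPM (SD, n = 3). It was thus among the members least reduced by the control precipitation (-0.96) and fell further with Flag-SBP2 (-1.64), an enrichment of -0.68 (SE 0.13, edgeR adjusted p = 0.000168). ENSG00000174748 was at 782, 817 and 776 CPM in the control RIP and 631, 677 and 586 CPM with SBP2, an enrichment of -0.36 (SE 0.118, adjusted p = 0.0178). In both the ratios of the 3 SBP2 lysates lay below those of the 3 control lysates. The call of ENSG00000174748 was lost without control input replicate 2 or SBP2 input replicate 1, with an adjusted p of up to 0.0583, which left 1 member lower. Without control input replicate 1, 5 members were lower. The shares of all genes in these fits were not counted. ENSG00000142937 (-0.41) and ENSG00000131469 (-0.35) had lower fitted values than ENSG00000174748 or close to it but did not pass, with SEs of 0.207 and 0.385. With input and RIP of a lysate as a block ENSG00000142937 passed as well (-0.43, SE 0.112, adjusted p = 0.00436). That fit called 28 members higher (22.8% of all genes) and 3 lower (19.5%).

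The rise of the family's share in the SBP2 precipitates rested mostly on the 11 members. They held 2.20 ± 0.0651% of the control input counts, 0.501 ± 0.0137% of the control RIP, 1.97 ± 0.111% of the SBP2 RIP and 1.59 ± 0.137% of the SBP2 RIP with selenite (SD, n = 3). For the other 49 members the shares were 9.15 ± 0.656, 2.60 ± 0.145, 2.76 ± 0.21 and 2.72 ± 0.392%. Of the 1.64 percentage points by which the family's mean RIP share exceeded the control, the 11 members gave 89.7%, and with selenite 89.8% of 1.21 points. Within the family's own counts, they went from 16.2% in the control RIP to 41.6% with Flag-SBP2 and 37.0% with selenite. These members were chosen for their enrichment, so this split is a description.

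How far members fell in the control and with Flag-SBP2 can be compared across genes, since these groups share no library. Across the 60 members the log2 changes in control and SBP2 lysates had a Pearson correlation of 0.578, against 0.713 over all tested genes. Without the 11 members enriched at least 2-fold, which were chosen for this very difference, it was 0.916 across the other 49. Genes within a library are not independent and share its depth, so the values are descriptions. The spread of the members' changes, as an SD across members, was 0.82 in the control and 1.09 with SBP2, against 1.13 and 0.94 across all tested genes.

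With selenite added, the same comparison with the control gave 24 members higher (19.3% of all genes), 1 lower (14.4%) and 35 in neither direction, and 8 were enriched at least 2-fold (7.73%). The median log2 enrichment was 0.31, against 0.026 over all genes. Both enrichments share the control libraries, so their likeness is not independent. ENSG00000164587 was at 2285, 1945 and 1999 CPM in the RIP with selenite and had a log2 enrichment of 3.70 (SE 0.161, edgeR adjusted p = 3.43e-15), against 3.96 without. Its inputs with selenite were at 2306, 1923 and 2050.2 CPM, which the RIP values overlapped. The next 4 members had enrichments of 2.52 (ENSG00000063177), 2.43 (ENSG00000168028), 2.33 (ENSG00000083845) and 2.17 (ENSG00000142676), against 2.89, 2.70, 2.68 and 2.52 without selenite. The 8 members past 2-fold with selenite were 72.7% of the 11 without it and 100% of their own list; ENSG00000140988, ENSG00000114391 and ENSG00000112306 stood at 0.99, 0.97 and 0.91 with selenite.

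Of the enriched members, 23 were called in both comparisons, 92% of the 25 and 95.8% of the 24. The same overlap over all genes was not counted, and both comparisons share the control libraries, so it is a description. ENSG00000118181 and ENSG00000177600 were called in the unblocked test without selenite and not with it (0.43 against 0.31, and 0.36 against 0.23), and ENSG00000105372 with it and not without it (0.41 against 0.48); these differences were not called in the direct test of selenite. With input and RIP of a lysate as a block ENSG00000118181 was called with selenite too (0.30, adjusted p = 0.0424), and ENSG00000105372 without it too (0.42, adjusted p = 0.0251). ENSG00000142676 was the member above its input with selenite, at 2613, 2346 and 2258 CPM in the inputs and 3155, 2783 and 3263 CPM in the RIP (0.35, adjusted p = 0.00116). ENSG00000174444 was the one depleted member, at -0.44 (SE 0.13, adjusted p = 0.00997). Without control RIP replicate 3 or SBP2 with selenite RIP replicate 1, 18 members were enriched, and the shares of all genes in those fits were not counted. RIP libraries compared without the inputs gave 35 members higher (29.5% of all genes) and 3 lower (28.1%).

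**Figure D4:**
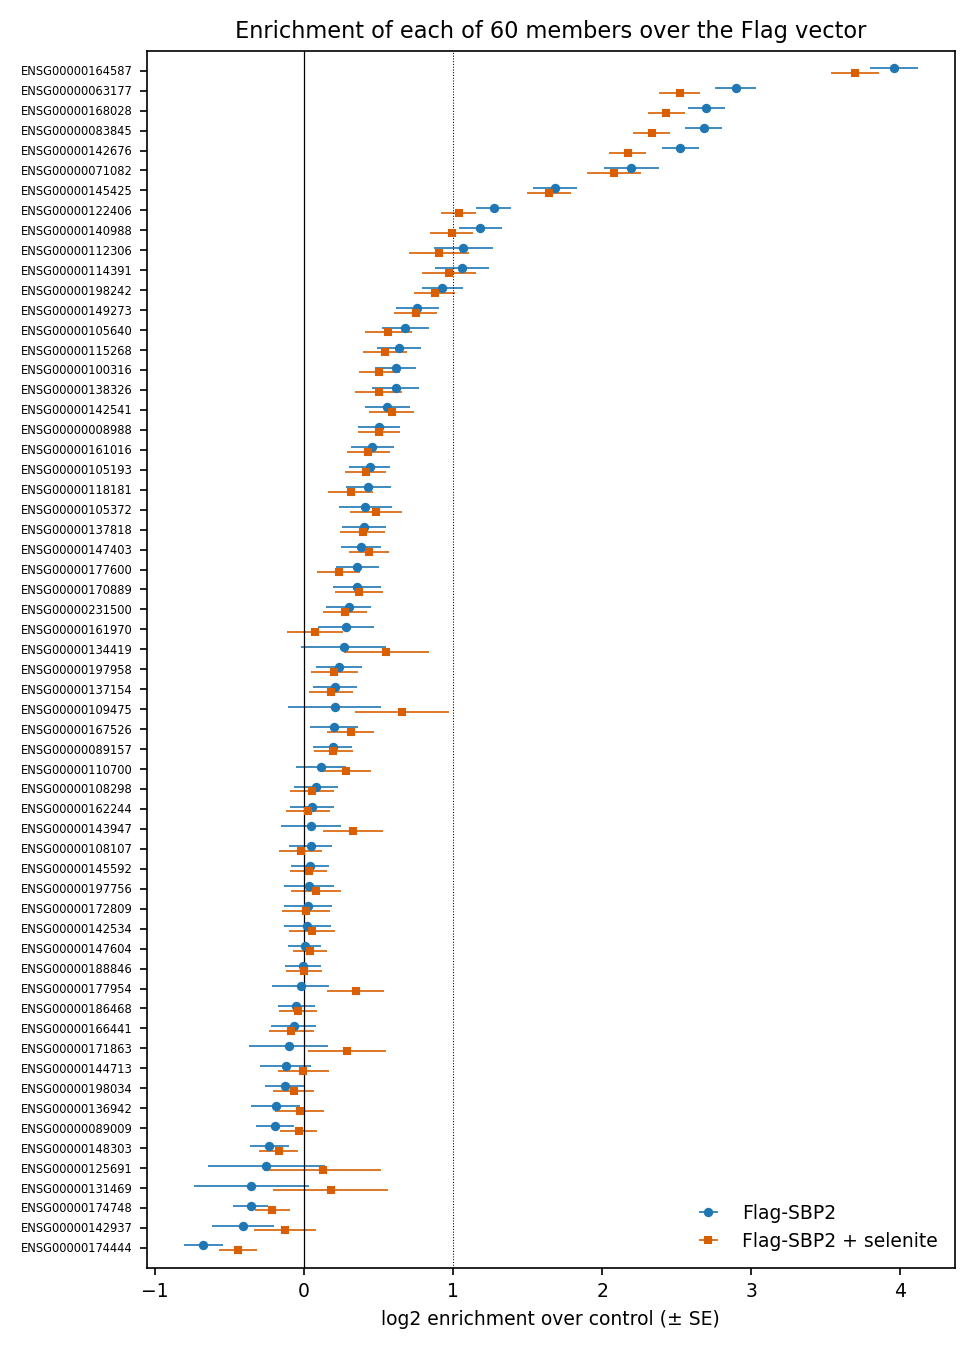
Log2 enrichment over control (x axis) of each of the 60 members, without (circles) and with selenite (squares), with bars of 1 SE and members ordered by the value without selenite. The upper 11 lie beyond the dotted line at 1, and the value with selenite lies to the left of the value without it for each of these 11.

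Whether selenite changed recovery was tested directly, as the RIP-to-input change with selenite minus that without it. By edgeR 0 of the 60 members were called in either direction, as were 0% of all genes; the smallest adjusted p among members was 0.989, and 4 members had an unadjusted p under 0.05. DESeq2's Wald test and limma's voom also called 0 members. Those 4 were ENSG00000063177 (-0.38), ENSG00000142676 (-0.35), ENSG00000083845 (-0.35) and ENSG00000168028 (-0.27), all among the most enriched members. All 11 members enriched at least 2-fold without selenite had a lower fitted value with it (median -0.23), and 22 of the other 49 did. The highest fitted values, 0.38 to 0.53, belonged to ENSG00000131469, ENSG00000109475, ENSG00000171863 and ENSG00000125691, members that varied between the inputs. The 11 were chosen on the SBP2 libraries that this difference uses, so their direction is not independent of the choice. In the RIP libraries, ENSG00000142676 went from 4214, 4160.2 and 4069 CPM without to 3155, 2783 and 3263 CPM with selenite, without overlap. ENSG00000063177 went from 2671, 2682 and 2342 to 2067, 1648 and 1874 CPM, also without overlap. Compared RIP with RIP, without the inputs, 7 members (11.7%) were lower with selenite, where 0.578% of all genes were: ENSG00000063177, ENSG00000164587, ENSG00000142676, ENSG00000083845, ENSG00000161970, ENSG00000122406 and ENSG00000138326, with log2 changes from -0.47 to -0.32.

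In the inputs, no member passed the unpaired test between treatments with all 9 libraries and the filter on low counts. Flag-SBP2 against the control gave 0 members called by edgeR, where 0.361% of all genes were higher and 0.518% lower, with 2 members at an unadjusted p under 0.05. The fitted values were above 0 for 45 of 60 members, with a median log2 change of 0.079 against -0.0085 over all genes. Same-numbered inputs deviated together, so the fit with the replicate number as a block is given beside this: it called 18 members higher (7.42% of all genes) and 1 lower (9.03%). The one lower was ENSG00000168028, at 1139, 1161 and 1254 CPM in the control inputs and 1013, 1011 and 1065 CPM with SBP2 (blocked log2 change -0.20, adjusted p = 0.0217). In the unblocked fit 5 members were higher with no filter on low counts (1.17% of the 31680 genes then tested). Without control input replicate 1, 8 members were higher, and the share of all genes in that fit was not counted. Selenite against no selenite in SBP2 inputs gave 0 members called by edgeR (0.00602% of all genes higher and 0% lower), 0 members at an unadjusted p under 0.05, and 52 of 60 fitted values below 0, with a median of -0.092 against 0.0010 over all genes. With the replicate block 5 members were lower (0.193% of all genes), as were 5 in the unblocked fit with no filter (0.0694% of 31680 genes). SBP2 with selenite against the control gave 0 members called (0.307% of all genes higher and 0.247% lower), 0 at an unadjusted p under 0.05 and 0 with the block (2.26% of all genes higher and 4.54% lower), with a median of -0.0084 against -0.016 over all genes. These are bulk lysates, in which fewer cells with an mRNA and less of it per cell cannot be told apart.

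The largest input changes under the block belonged to 5 members that varied between replicates. Over the 9 inputs the highest CPM was more than 2-fold the lowest for 5 of the 60 members (8.33%), against 2.26% of the 4513 genes with a mean input CPM of at least 50, although the median of this fold was 1.29 in members and 1.32 in those genes. ENSG00000125691 was at 3461, 1363 and 1189 CPM in the control inputs, 3792, 3416 and 2142 CPM with SBP2 and 2834, 1803 and 1463 CPM with SBP2 and selenite. ENSG00000131469 was at 4147, 1565 and 1540.5 CPM in the control inputs, 4609, 4442 and 2611 CPM with SBP2 and 3356, 2234 and 1942 CPM with SBP2 and selenite. Both were high in control replicate 1 and in SBP2 replicates 1 and 2, low in control replicates 2 and 3, and in between in the selenite inputs, so the groups overlapped. ENSG00000109475, ENSG00000134419 and ENSG00000171863 had their highest values in the same libraries and ran from 571 to 1382, 467 to 988 and 621 to 1273 CPM. With the block, the log2 changes of these 5 from control to SBP2 inputs were 0.48 to 0.80, and from SBP2 to selenite inputs -0.65 to -0.41. They were the 5 members called lower with selenite, and ENSG00000125691 had blocked values of 0.77 (SE 0.119, edgeR adjusted p = 0.000134) and -0.65 (SE 0.118, adjusted p = 0.0239). Without the block, in the test with all 9 inputs and the filter on low counts, none of the 5 passed in either comparison. For the enrichment over control their SEs, 0.263 to 0.392, were the 5 largest among members, and none of the 5 was called.

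**Figure D5:**
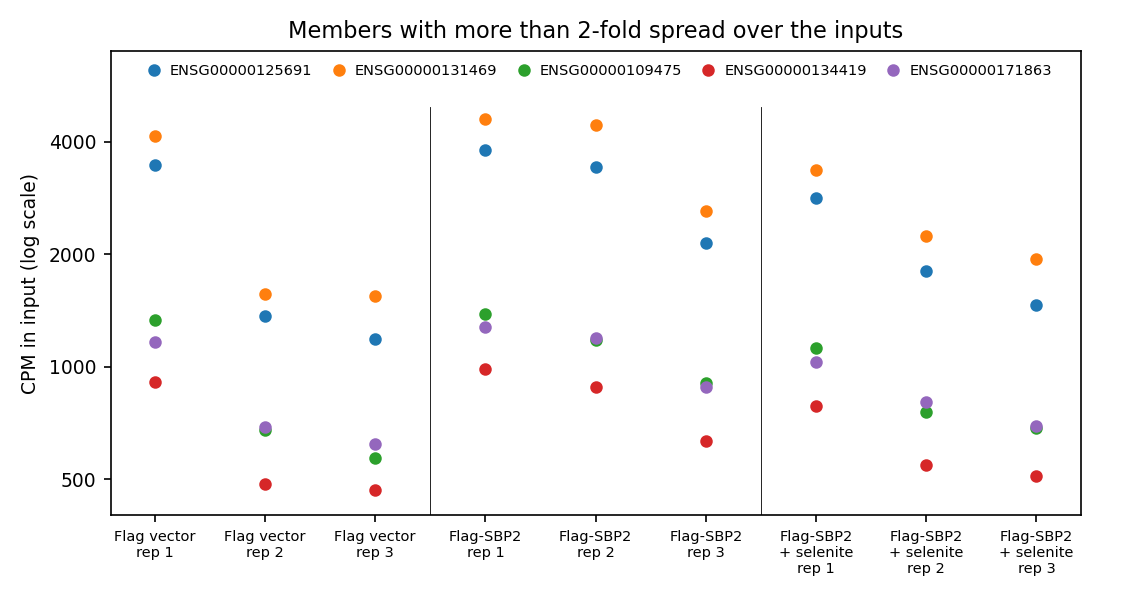
CPM (log scale) of the 5 members whose highest input exceeded the lowest more than 2-fold, in each of the 9 input libraries. All 5 are high in control replicate 1 and in SBP2 replicates 1 and 2; levels are to be compared between libraries for 1 gene, not between genes, since CPM does not account for gene length.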

How the data were processed

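Per the file headers and values, the authors deposited 1 table of whole-number read counts per Ensembl gene for 18 polyA RNA libraries. Per the submitters' processing notes, Trim Galore 0.6.6, STAR 2.7.6a and featureCounts 2.0.1 were used with GRCh38 (hg38); for annotation, strand setting and reads with several matches, the entry is: not given in the sources used here. Samples were grouped by title. Libraries held 15.2 to 29.9 M counts and the least counted member 284 in any library. Taken over all tested genes, replicates differed by more than counting error, which was not compared for single members.

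Counts were scaled by TMM and tested with edgeR 4.0.16 (R 4.3.3; filterByExpr, minimum count 10 and minimum total 15; two-sided quasi-likelihood test; Benjamini-Hochberg over all genes, threshold 0.05), with 1 group-means model over 18 libraries for RIP comparisons and over the 9 inputs for input comparisons. Enrichment over control is the log2 RIP-to-input change with SBP2 minus that of the control. Standard errors come from the test statistic. Lysate ratios are differences of log2 CPM with a prior count of 2. All members were read by ID from the whole table. The fits were also run on simulated counts. Those were drawn independently for each library with few changed genes, so they cannot show how shared deviations or broad RIP changes affect the fits.

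Input and RIP libraries with equal treatment and number count as 1 lysate, because per the labels' protocol the input was drawn from the lysate before precipitation. Same-numbered inputs deviated together from their group means (correlations over 13205 genes of 0.166 to 0.526 for control and SBP2, 0.332 to 0.647 for control and selenite and 0.306 to 0.477 for SBP2 and selenite), so blocked fits are given beside input results. The same held for control and SBP2 RIP libraries (0.220 to 0.362), whose direct comparison is also given with the block. Between input and RIP of the same lysate the correlations were 0.044 to 0.378 in the control, 0.130 to 0.265 with SBP2 and -0.133 to 0.387 with selenite. Pairs with unequal numbers reached 0.174, 0.025 and 0.144. The values thus bear out the pairing of input and RIP for each number only with SBP2. Alternatives were plain library sizes, DESeq2 1.42.0 size factors and Wald test, upper-quartile factors, limma 3.58.1 voom, no filter, a block, only the compared groups, RIP against RIP, factors without the members and RIP against RIP with the block (both chosen after seeing the data), and leaving out each library. The block was the lysate in comparisons that use input and RIP. It was the replicate number in comparisons of inputs and of RIP against RIP.

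Members and lists were chosen with earlier results of these data known. The rule named the 4 highest and 4 lowest members per comparison; other IDs were named after their values were seen, and not every comparison without calls is given at that length. Since 0 of the 59792 genes of the reference table carried an Ensembl ID, the parts of the rule that use symbols, the gene lists, the cell markers and the check of the transfected gene were not used.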

Additional observations from a re-analysis of the deposited data

Results flagged for a closer look

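For 27 members the change from input to RIP differed between Flag-SBP2 and control lysates by a test of that difference. Of these, 25 were higher (21.7% of all genes) and 2 lower (18.1%) with SBP2, so such differences were also common outside the family. With selenite the same test called 25 members, 24 higher (19.3% of all genes) and 1 lower (14.4%). For 2 of the 27, ENSG00000142676 and ENSG00000168028, the change was below 0 in the control and above 0 with Flag-SBP2, both called. With selenite this held for 1, ENSG00000142676. Among all genes 39.8% were lower in the control RIP and 30.3% higher in the SBP2 RIP. The share with both was not counted, so whether 2 members are many or few is not known. In groups of 3 no sample was tested as an outlier.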

How the results depend on the processing

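The 60 members below input in control RIP were called under every alternative and without any single library, with medians from -2.58 to -2.34. Members above input in SBP2 RIP went from 2 to 4 with plain library sizes (31.9% of all genes) and in the fit over the compared groups (33.9%). They also went to 4 with no filter (15.9% of the 35033 genes then tested). They were 2 to 4 as single libraries were left out. Shares of all genes were not counted for fits without a library. With selenite, members above input went from 1 to 2 with plain library sizes (32.8% of all genes) and the lysate block (31.6%). They were 1 to 2 with single libraries left out. The members' median change from input was -2.13 without SBP2 with selenite RIP replicate 1 and -1.80 without its input replicate 1. Enriched members were 39 (31.6% of all genes) when RIP was compared with RIP and 41 (32.9%) with the replicate block added. With selenite they were 37 (30.8%) with that block. Depleted members were 5 with plain library sizes (24.7% of all genes) and with factors computed without the members (23.8%). They were 8 with no filter (11.9% of 35033 genes), and 1 to 5 with single libraries left out. With selenite, depleted members were 2 with plain library sizes (20.3% of all genes), DESeq2 size factors (19.2%), the DESeq2 test (19.6%) and factors without the members (20.6%). They were 3 with no filter (10.5% of 35033 genes) and in RIP against RIP, unblocked (28.1%) or blocked (29.4%). With selenite against without it, RIP compared with RIP gave 7 members lower (0.578% of all genes) and 8 with the block (1.48%). That compares RIP levels and not recovery, for which the main test called 0 members. For SBP2 inputs, members higher were 5 with no filter (1.17% of the 31680 genes then tested) and 18 with the replicate block (7.42% of all genes). They were 0 to 8 with single libraries left out, and 1 was lower with the block (9.03%). For selenite inputs, 5 were lower with no filter (0.0694% of 31680 genes) and 5 with the block (0.193% of all genes). In comparisons that use input and RIP the lysate block kept every call and added others, from 27 to 31 for the enrichment. Over all genes it raised the calls for this enrichment too, to 22.8% higher and 19.5% lower from 21.7% and 18.1%. No called result changed direction, while the medians of the selenite effect on recovery and of selenite inputs against the control, both near 0, took both signs. The cause of these shifts was not tested. Fits on 3 replicates per group, shares without absolute amounts and IDs without gene lengths limit what can be compared.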
